A study of Rattus norvegicus with 6 samples.

Results

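Fibrotic scar matrix genes were examined in rat spinal cord that had received a scaffold implant, as 7 genes chosen by Ensembl ID from the 22526 genes of the deposited table. Col1a1, Col1a2 and Col3a1 encode fibrillar collagen chains, Fn1 encodes fibronectin, Dcn encodes decorin, and Sparc and Postn encode osteonectin and periostin. The names came with the list of IDs, and all 7 were found in the table, which itself gives no gene names. RNA came from the spinal cord of 6 adult female rats of the Sprague-Dawley strain, 2 weeks after the cord had been injured, with 1 library per rat. In 3 rats the implant was a decellularized optic nerve scaffold to which the aptamer Apt19S had been added, aptamers being short nucleic acid strands that bind a chosen target through their folded shape (A-DON). In the other 3 it was the decellularized optic nerve scaffold alone (DON). Injury and scaffold were thus common to both groups, and no uninjured cord and no injured cord without a scaffold was analysed here.

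After spinal cord injury, fibroblasts that come from the perivascular space and, where the dura is torn, from the meninges gather in the lesion core and lay down a fibrotic scar. Its scaffold is made of fibrillar collagens of types I and III on a fibronectin network, and is surrounded by reactive glia. Decorin binds collagen fibrils and limits their lateral growth, while SPARC and periostin are matricellular proteins, which regulate how cells and collagen assemble more than they bear load. Such a scar is known as an obstacle to axon growth. In bulk tissue, fewer cells of a type and less RNA per cell cannot be told apart.

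All 7 genes had lower levels in A-DON replicates 1 and 3 than in any DON library. The distance to the lowest DON library ran from 2.16-fold (Sparc, replicate 3) to 56.7-fold (Col1a1, replicate 1). A-DON replicate 2, in contrast, lay within 1.39-fold of the DON mean in each of the 7 genes. The deposited values are log2(normalized count + 1), where a normalized count is the number of reads divided by a factor for the library's depth. Library totals ran from 24961512 to 31189687 reads and the fewest reads for any of these genes in a library was 362, so counting error was small beside the spread between rats. A-DON replicate 2 stands between the groups over the whole table too, where its Pearson's r over the tested genes was 0.941 with A-DON replicate 1, 0.947 with A-DON replicate 3 and 0.933 to 0.950 across the DON libraries. These coefficients are descriptions, since genes are not replicates. The fits, the SDs of single genes and the differences in the ratios of Fn1, Sparc and Postn to Col1a1 are therefore given with and without it. The SDs over pairs of genes, the fold ranges over 6 libraries and the likeness distances are given only with it. Which feature of this rat or sample goes with its place was not tested.

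Col1a1 (ENSRNOG00000003897), which encodes one of the chains of type I collagen, had 1284, 62316 and 4602 normalized counts in A-DON replicates 1, 2 and 3, against 72847, 75332 and 94961 in DON replicates 1, 2 and 3. Each A-DON library was below every DON library, but replicate 2 only narrowly. Relative to the mean of the DON log2 values, Col1a1 was 62.6-fold lower in A-DON replicate 1, 1.29-fold lower in replicate 2 and 17.5-fold lower in replicate 3. Col1a2 (ENSRNOG00000011292), the partner chain in the type I collagen trimer, had 527, 20537 and 1686 normalized counts in the A-DON libraries, against 27512, 22783 and 29512 in the DON libraries. The pattern was that of Col1a1, with no overlap between the groups and replicate 2 again close to DON. Col3a1 (ENSRNOG00000003357), the chain of type III collagen, which is laid down early in repairing tissue, had 1125, 50049 and 5000.0 normalized counts in A-DON and 85385, 33184 and 82679 in DON. Here the groups overlapped, since A-DON replicate 2 exceeded DON replicate 2.

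Fn1 (ENSRNOG00000014288), the adhesive glycoprotein on which collagen fibrils assemble, had 3429, 25960 and 4196 normalized counts in A-DON replicates 1, 2 and 3 and 27838, 16837 and 35240 in DON replicates 1, 2 and 3. A-DON replicate 2 lay inside the DON range, and the other A-DON libraries lay 7.42-fold and 6.07-fold below the DON mean on the log2 scale. Dcn (ENSRNOG00000004554), the small leucine-rich proteoglycan that coats collagen fibrils, had 349, 10469 and 835 normalized counts in A-DON, against 33711, 6810 and 13455 in DON. It was the member with the widest DON range, 4.95-fold, and A-DON replicate 2 lay within it.

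Sparc (ENSRNOG00000012840), a calcium- and collagen-binding matricellular protein that astrocytes, microglia and endothelium also make, had 35595, 80611 and 39523 normalized counts in A-DON and 109219, 85218 and 107085 in DON. All 3 A-DON libraries were below all 3 DON libraries, by 2.81-fold, 1.24-fold and 2.53-fold relative to the DON mean in replicates 1, 2 and 3, and the distances of replicates 1 and 3 were the smallest among the 7 genes. Postn (ENSRNOG00000012660), a matricellular protein made by activated fibroblasts, had 356, 2914 and 374 normalized counts in A-DON and 4018, 2202 and 7106 in DON. Replicates 1 and 3 were nearly equal, and replicate 2 exceeded DON replicate 2.

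**Figure D1:**
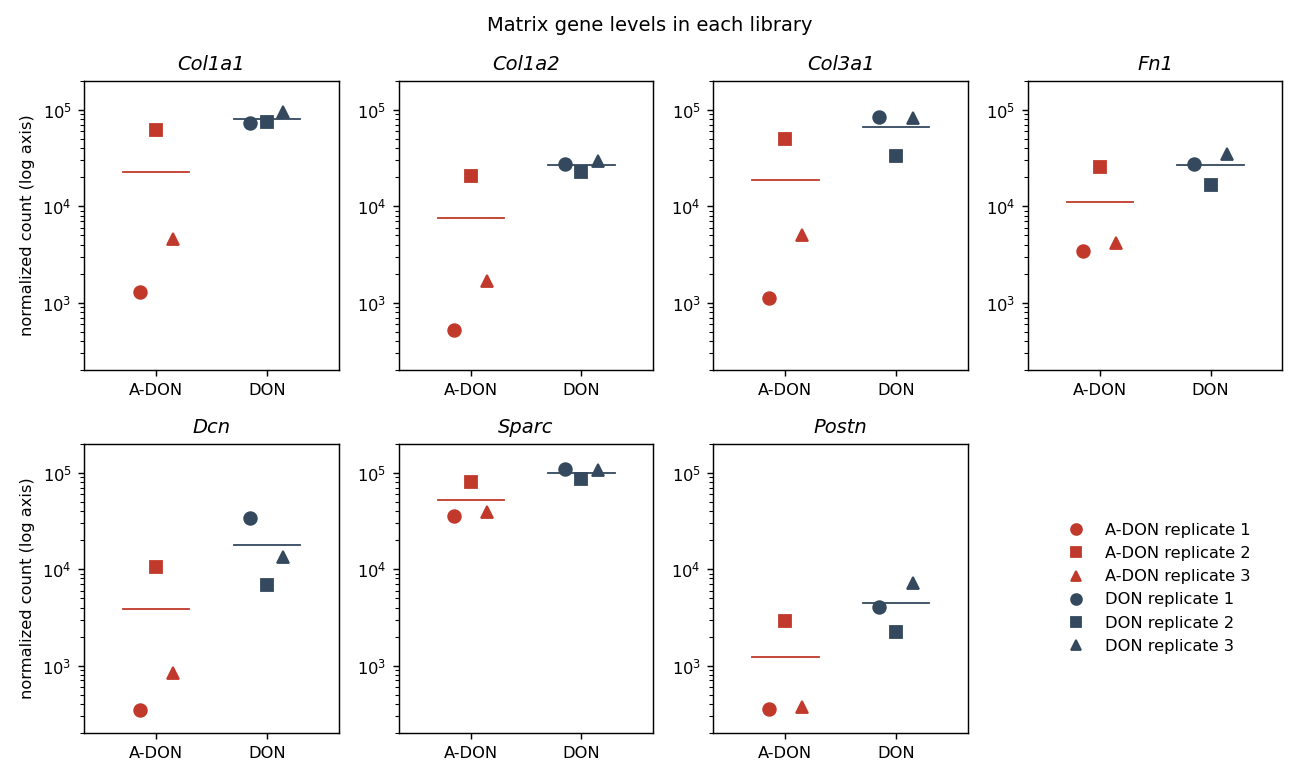
Normalized counts (log axis) of the 7 matrix genes in each A-DON library (left) and DON library (right); each point is 1 rat, marker shapes give the replicate number and horizontal lines the group mean of normalized counts. A-DON replicate 2 (red square) sits within 1.39-fold of the DON mean of log2 values in every panel, while A-DON replicates 1 and 3 lie below all DON points.

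Together the 7 genes held 0.153%, 0.939% and 0.201% of all reads in A-DON replicates 1, 2 and 3, against 1.21%, 0.835% and 1.26% in DON replicates 1, 2 and 3. The 3 collagen genes alone held 0.0105%, 0.494% and 0.0404% in A-DON and 0.625%, 0.453% and 0.704% in DON. A-DON replicate 2 held a larger share than DON replicate 2 on both counts.

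The comparison asked how adding the aptamer to the scaffold bears on these transcripts. With all 6 libraries, 0 of the 7 genes passed the threshold in either direction (limma, Benjamini-Hochberg adjusted p under 0.05 over 19515 tested genes), while 35.5% of all tested genes did and 16.6% were called lower in A-DON. At an unadjusted p under 0.05, 5 of the 7 passed, beside 49.97% of the tested genes, and 0 of the 7 passed when A-DON replicate 1, A-DON replicate 3, DON replicate 1 or DON replicate 3 was left out (limma; 35.0% to 43.4% of the tested genes). The 7 fitted log2 fold changes of A-DON over DON were all negative, with a median of -3.23 against -0.02 over all tested genes. Col1a1 had a log2 fold change of -3.49 ± 1.35 (SE; limma adjusted p = 0.087) and Col1a2 of -3.33 ± 1.27 (SE; limma adjusted p = 0.085). Col3a1 had a log2 fold change of -3.23 ± 1.35 (SE; limma adjusted p = 0.10), Dcn of -3.33 ± 1.32 (SE; limma adjusted p = 0.092) and Postn of -2.44 ± 0.91 (SE; limma adjusted p = 0.079). The 2 smallest were those of Fn1, -1.82 ± 0.80 (SE; limma adjusted p = 0.12), and Sparc, -1.05 ± 0.34 (SE; limma adjusted p = 0.055). The 95% interval of the log2 fold change ran from -6.78 to -0.20 for Col1a1 and from -6.52 to 0.06 for Col3a1.

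Without A-DON replicate 2, all 7 genes were called lower in A-DON (limma, Benjamini-Hochberg), beside 24.9% of the tested genes. Their median log2 fold change was then -4.70, against 0.00 over all tested genes. Col1a1 had a log2 fold change of -5.05 ± 0.54 (SE; limma adjusted p = 0.0022), Col1a2 of -4.81 ± 0.49 (SE; limma adjusted p = 0.0020), Col3a1 of -4.70 ± 0.75 (SE; limma adjusted p = 0.0063) and Dcn of -4.75 ± 0.75 (SE; limma adjusted p = 0.0060). Postn followed with -3.44 ± 0.48 (SE; limma adjusted p = 0.0044), Fn1 with -2.75 ± 0.33 (SE; limma adjusted p = 0.0030) and Sparc with -1.41 ± 0.17 (SE; limma adjusted p = 0.0027). The call for these genes therefore rests on whether that library is kept, and this fit compares 2 A-DON rats with 3 DON rats. Each library was left out in turn, but this one is set out here because of its values in these same genes. The p-values of this fit are therefore no independent support for lower levels in A-DON. Per-library weights, which keep A-DON replicate 2 at a weight of 0.24 but also give 0.41 to DON replicate 1 and 6.99 to A-DON replicate 3, called all 7 lower in A-DON, beside 32.1% of the tested genes (limma). The labels give no ground for leaving this library out, so the result with all 6 libraries stands as the comparison of the groups.

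**Figure D2:**
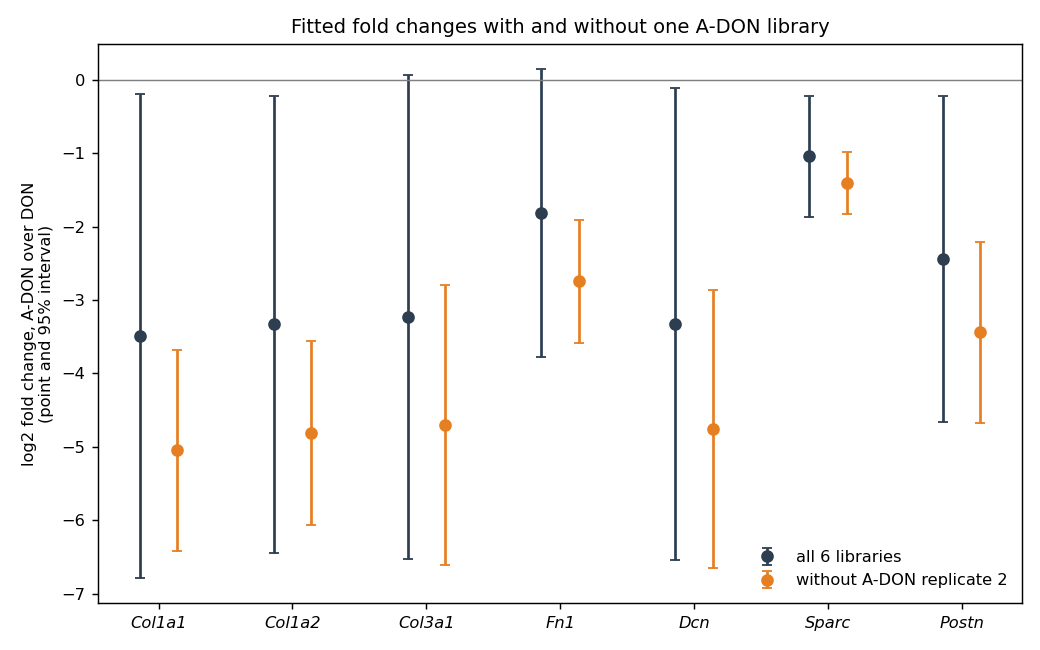
Log2 fold change of A-DON over DON for each gene from the limma fit, with its 95% interval, for all 6 libraries (dark) and without A-DON replicate 2 (orange). All points are negative, and the intervals narrow and move further from 0 without that library, for example for Col1a1, whose standard error is 0.54 without it and 1.35 with it.

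In the ranges of the raw values, 3 of the 7 genes (Col1a1, Col1a2 and Sparc) had all A-DON libraries below all DON libraries, as had 27.9% of the tested genes. In Col3a1, Fn1, Dcn and Postn the groups overlapped, in each case because A-DON replicate 2 exceeded DON replicate 2. A-DON replicates 1 and 3 were both at least 2-fold below the lowest DON library in 7 of 7 genes, against 14.6% of the tested genes. All 7 met this condition and also had A-DON replicate 2 within 1.5-fold of the DON mean, and 4.41% of the tested genes met both. These limits were set after the values had been seen, so the shares are descriptions.

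With all libraries, the log2 values of all 7 genes varied more among the A-DON rats than among the DON rats, and without A-DON replicate 2 this held for 3 of them. The SD of the log2 values of Col1a1 was 2.85 in A-DON and 0.21 in DON (n = 3 each). Col1a2, Col3a1 and Dcn had SDs of 2.70, 2.76 and 2.55 in A-DON, against 0.19, 0.77 and 1.16 in DON. Fn1, Postn and Sparc had SDs of 1.61, 1.73 and 0.64 in A-DON, against 0.54, 0.84 and 0.20 in DON. The largest SDs in A-DON were those of the collagen genes and Dcn. Over the 14706 tested genes that averaged 50 normalized counts or more, the median SD was 0.23 in A-DON and 0.21 in DON. Between 86.3% (Sparc) and 99.3% (Col1a1) of these genes had a smaller SD in A-DON than the member did. Without A-DON replicate 2, the SD of A-DON replicates 1 and 3 was still above that of the DON libraries for Col1a1 (1.301 in A-DON and 0.21 in DON), Col1a2 (1.19 in A-DON and 0.19 in DON) and Col3a1 (1.52 in A-DON and 0.77 in DON). It was below that of the DON libraries for Dcn (0.89 in A-DON and 1.16 in DON), Fn1 (0.21 in A-DON and 0.54 in DON), Sparc (0.11 in A-DON and 0.20 in DON) and Postn (0.05 in A-DON and 0.84 in DON). The wider A-DON spread of these 4 genes therefore rests on A-DON replicate 2. This sets an SD of 2 A-DON libraries against an SD of 3 DON libraries. Over the same 14706 genes the median SD was then 0.10 in A-DON, against 0.21 in DON. The share of all tested genes with a larger SD in A-DON was not computed, so the counts of members are descriptions.

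**Figure D3:**
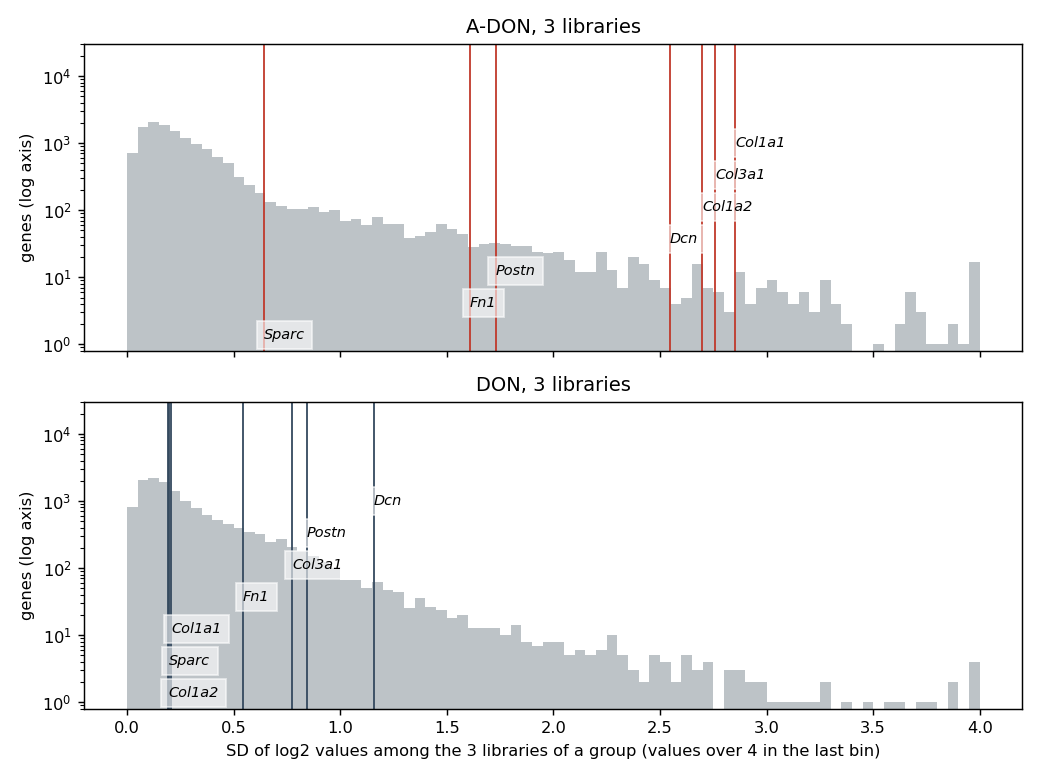
Distribution of the SD of log2 values among the 3 A-DON libraries (upper panel) and the 3 DON libraries (lower panel) over 14706 tested genes that averaged 50 normalized counts or more (log axis), with vertical lines at the 7 matrix genes. The collagen genes and Dcn stand in the far right tail in A-DON, between 2.55 and 2.85, and Col1a1, Col1a2 and Sparc stand at 0.19 to 0.21 in DON. Without A-DON replicate 2 the A-DON SD is above the DON SD for the 3 collagen genes and below it for the other 4.

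The 2 low A-DON libraries were not alike for every gene. Replicate 3 exceeded replicate 1 by 3.58-fold in Col1a1, 3.20-fold in Col1a2, 4.44-fold in Col3a1 and 2.39-fold in Dcn. In Fn1, Sparc and Postn the ratio was 1.22, 1.11 and 1.05. The fibrillar collagens and the proteoglycan that binds them thus differed between these rats by over 2-fold, while the glycoprotein and both matricellular genes differed little. Of the 14706 genes averaging 50 normalized counts or more, 1.61% had a ratio of 2 or more between replicate 3 and replicate 1, whose median was 1.00. In all 7 genes replicate 1 was the lowest of the 6 libraries and replicate 3 the next lowest.

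Among the DON rats, replicate 2 was the lowest for every gene but Col1a1, for which replicate 1 was. The DON range was narrow for Col1a1 (1.304-fold), Col1a2 (1.295-fold) and Sparc (1.28-fold). It was wider for Fn1 (2.09-fold), Col3a1 (2.57-fold), Postn (3.23-fold) and Dcn (4.95-fold). DON replicate 2 therefore differed little from the other DON rats in Col1a1, Col1a2 and Sparc and had less Col3a1, Fn1, Postn and Dcn.

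Ratios between members within a library do not depend on how libraries are scaled, and 6 were tested. Each of the 6 includes Col1a1, so they are not independent of one another. Reads are not corrected for gene length, so only differences of a ratio between libraries are described. The ratio of Col1a1 to Col1a2 reads was 2.44, 3.03 and 2.73 in A-DON replicates 1, 2 and 3, against 2.65, 3.31 and 3.22 in DON replicates 1, 2 and 3. While Col1a1 itself ranged 73.9-fold over the 6 libraries, this ratio ranged 1.36-fold, the least of all 21 pairs of members. Both chains of the type I collagen trimer thus kept nearly the same proportion in rats with little and with much of either. Its mean log2 value was 1.45 ± 0.16 in A-DON and 1.61 ± 0.17 in DON (SD, n = 3 each; exact two-sided permutation p = 0.3, 0.6 adjusted over the 6 ratios).

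The ratio of Fn1 to Col1a1 reads was 2.67, 0.417 and 0.912 in A-DON and 0.382, 0.224 and 0.371 in DON. It was the only one of the 6 ratios whose groups did not overlap, being higher in each A-DON library. On the log2 scale it averaged 0.01 ± 1.35 in A-DON and -1.66 ± 0.44 in DON (SD, n = 3 each; exact two-sided permutation p = 0.1, the smallest that 3 rats against 3 allow, and 0.6 adjusted over the 6 ratios). Sparc to Col1a1 was 27.7, 1.29 and 8.59 in A-DON and 1.499, 1.13 and 1.13 in DON (exact two-sided permutation p = 0.2, 0.6 adjusted). Sparc was thus high relative to Col1a1 in A-DON replicates 1 and 3, with replicate 2 inside the DON range. Postn to Col1a1 was 0.277, 0.0468 and 0.0812 in A-DON and 0.0552, 0.0292 and 0.0748 in DON (exact two-sided permutation p = 0.4, 0.6 adjusted). The other two ratios, Col3a1 to Col1a1 and Dcn to Col1a1, overlapped as well (exact two-sided permutation p = 0.8 and 0.8 adjusted for both). Without A-DON replicate 2, the difference of A-DON minus DON in the log2 ratio was 2.30 for Fn1 to Col1a1, against 1.67 with all libraries, 3.64 for Sparc to Col1a1, against 2.44, and 1.60 for Postn to Col1a1, against 1.04. Without A-DON replicate 1 the same differences were smaller, at 0.96 for Fn1 to Col1a1, 1.43 for Sparc to Col1a1 and 0.32 for Postn to Col1a1. No ratio passed the adjustment, and none could with 3 rats a group.

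**Figure D4:**
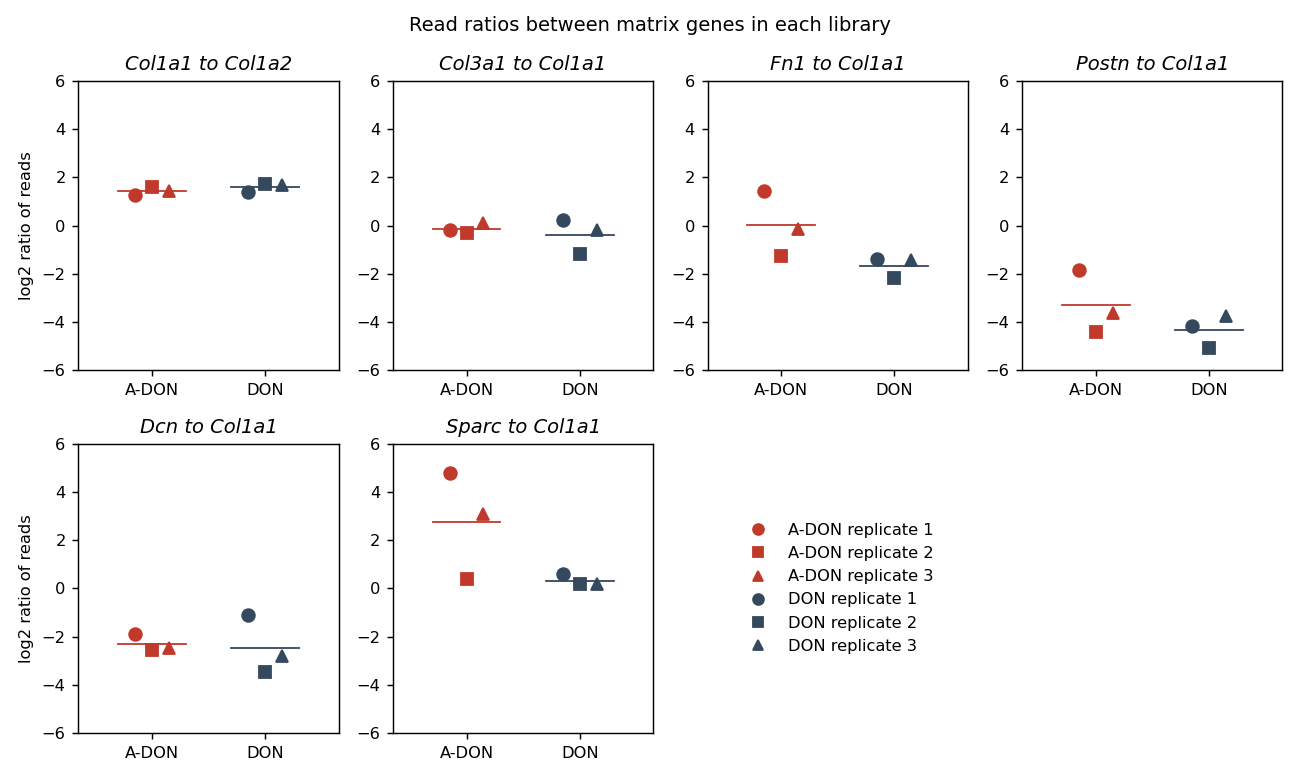
Log2 ratio of reads for 6 pairs of matrix genes in each A-DON library (left) and DON library (right); points are rats, shapes the replicate number and horizontal lines group means. Col1a1 to Col1a2 is nearly flat over all 6 libraries, whereas Fn1, Sparc and Postn relative to Col1a1 are highest in A-DON replicate 1.

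Over all 21 pairs, the SD of the log2 read ratio across the 6 libraries was smallest for Col1a1 with Col1a2 (0.17), followed by Col1a2 with Col3a1 (0.41) and Fn1 with Postn (0.41). It was largest for Col1a1 with Sparc (1.95). Over all 6 libraries, the closest pairs thus joined a fibrillar collagen with another one, and fibronectin with periostin, which binds to it in the matrix. The order differed within DON, where the SD was 0.07 for Col1a2 with Sparc, 0.17 for Col1a1 with Col1a2 and 0.24 for Col1a1 with Sparc. It was 0.33 there for Fn1 with Postn and 0.59 for Col1a2 with Col3a1. Within A-DON the SD was 2.08 for Col1a2 with Sparc and 2.23 for Col1a1 with Sparc. The order over 6 libraries is thus not that of the DON rats alone. These SDs are descriptions and carry no test.

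Promoter sequence was at hand for 3 of the 7 genes, from RefSeq on the GRCr8 build, matched by symbol. It is shown for all 3, Col1a2, Postn and Sparc. Each was lower in A-DON replicates 1 and 3 than in any DON library, Sparc by the least. Whether promoter sequence goes with these levels was not tested. The 250 bases before each annotated start were searched on both strands for CCAAT, then TATAAA, then GGGCGG and last TGACTCA, motifs that do not overlap one another in these windows. Capitals mark the matches, the first in Col1a2 being CCAAT on the opposite strand, read here as ATTGG. For Col1a2 and Postn the stretch runs from 60 bases before TATAAA, and for Sparc, where none of the 4 was found, it is the last 80 bases before the start.

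Col1a2, chr4:33518327-33518406, plus strand: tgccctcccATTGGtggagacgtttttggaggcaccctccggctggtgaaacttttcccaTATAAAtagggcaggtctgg

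Postn, chr2:140677957-140678036, plus strand: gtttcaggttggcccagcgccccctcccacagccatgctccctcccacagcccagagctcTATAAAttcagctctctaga

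Sparc, chr10:40038817-40038896, minus strand: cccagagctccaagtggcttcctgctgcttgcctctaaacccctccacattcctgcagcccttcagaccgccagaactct

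TATAAA, the core of the TATA box at which the general transcription machinery assembles, lay 39 to 44 bases before the annotated start of Postn and 165 to 170 bases before that of Col1a2. It occurs in the same window of 12.9% of the 33469 promoters in the table. CCAAT, the core of the element bound by NF-Y, occurs in 34.0% of them. GGGCGG and TGACTCA were found in none of the 3 windows and occur in 30.5% and 4.05% of the promoters. Such matches describe letters only.

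The genes outside the list whose pattern was most like it were ENSRNOG00000017800 and ENSRNOG00000045684, for which the files give no name. Likeness was the root mean square distance between a gene's log2 values, centred on their own mean over the 6 libraries, and the mean centred profile of the 7 genes. Among 14699 other tested genes that averaged 50 normalized counts or more, the distances of these genes were 0.13 and 0.16, while the members themselves lay 0.44 (Postn) to 1.19 (Sparc) from their own mean profile. ENSRNOG00000017800 had 52.0, 898 and 111 normalized counts in A-DON replicates 1, 2 and 3, against 1652, 870 and 1588 in DON replicates 1, 2 and 3. It thus repeats the order of the libraries seen in Col3a1 and Dcn, with replicate 2 of A-DON just above replicate 2 of DON. In all, 144 of the 14699 genes lay nearer to the mean profile than any member did, so a profile near this mean is not limited to these 7 genes. The distance counts the size of a change as well as its shape. The mean profile averages members whose log2 fold changes ran from -3.49 (Col1a1) to -1.05 (Sparc). The members' own distances are therefore a loose yardstick.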

How the data were processed

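The authors deposited 1 table of log2 values for 22526 Ensembl gene IDs in 6 libraries of stranded mRNA-seq. The build rn6 and the tools STAR 2.5.3a, StringTie 1.3.1c and FastQC 0.11.2 are listed without roles in the submitters' processing notes. How reads were counted, and on which annotation, is not given in the sources used here. Undoing the log2 and subtracting 1 gave whole multiples of 1 step per library (100% of values within 0.05 reads), whose inverses, 0.927 to 1.05, equal median-of-ratios size factors. Gene names came with the list of IDs and were not checked, since 0 IDs of the table are in the reference gene table, so marker and pathway lists could not be matched, and the tissue label was not checked.

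Group differences were fitted with limma 3.58.1 in R 4.3.3 (intensity trend, robust moderation) over genes whose normalized count reached 1 in 3 or more libraries, with Benjamini-Hochberg adjustment (threshold 0.05). A pseudocount of 1, as deposited, underlies every log2 fold change, which understates changes of low genes. The fit was checked on simulated counts with the same dispersion for every gene and no outlying library. That check therefore does not bear on a library placed as A-DON replicate 2 is. Named genes were the 7 members and the nearest others by the likeness rule, limited to 2 IDs. Members and lists were chosen with earlier results of these data known. Replicates are separate rats by the series' design. Other scalings, filters, pseudocounts and moderation, voom, a replicate block, sample weights (added after seeing the data) and leaving out each library were alternatives.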

Additional observations from a re-analysis of the deposited data

How the results depend on the processing

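All 7 genes were lower in A-DON under all 16 alternatives, whose log2 fold changes for Col1a1 ran from -5.05 to -2.25 and for Sparc from -1.41 to -0.57. The count of genes past the threshold was 0 under 14 of them, voom on the recovered reads (0 called, beside 38.9% of all tested genes, and 4 at an unadjusted p under 0.05, beside 51.1%) and the replicate block (0 called, 3 unadjusted, beside 38.9% of all tested genes unadjusted) included, and 7 with per-library weights, which were chosen after seeing the data. Leaving out 1 library gave counts of 0 to 7, with 7 only without A-DON replicate 2; the cause was not tested. With the replicate block 0 of all 19515 genes passed (7601 unadjusted), with 2 residual degrees of freedom; same-numbered rats showed no shared deviation from their group means (r = -0.17, -0.24 and -0.08 over genes), so the numbers were not taken to pair them. The count over all genes, 6930, was 12414 with weights, and leaving out 1 library moved it from 12 (without A-DON replicate 3) to 9286 (without A-DON replicate 2). Median-of-ratios rescaling, already in the values, tests nothing. Leaving out 1 library moved the A-DON minus DON difference in the log2 ratio of Col3a1 to Col1a1 between -0.14 (without DON replicate 2) and 0.56, and that of Dcn to Col1a1 between -0.34 (without DON replicate 2) and 0.84; the difference for Dcn was also negative without A-DON replicate 1 or DON replicate 3. The other 4 differences kept their sign but not their size: leaving out 1 library gave 0.96 to 2.30 for Fn1 to Col1a1, 1.43 to 3.64 for Sparc to Col1a1 and 0.32 to 1.60 for Postn to Col1a1, each lowest without A-DON replicate 1 and highest without A-DON replicate 2, and -0.26 (without DON replicate 1) to -0.08 (without A-DON replicate 1) for Col1a1 to Col1a2. Depth did not limit these genes, as each had at least 362 reads in every library.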
